A study of Mus musculus with 30 samples.

Results

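Non-additivity of FoxK1 and FoxK2 loss was examined in insulin-stimulated AML12 cells, a mouse hepatocyte line, in which FoxK1, FoxK2 or both had been depleted by RNA interference. The contrast was the log2 level in DKD cells minus that in FoxK1 KD cells minus that in FoxK2 KD cells plus that in Control cells, taken over every sample labelled as insulin-treated for 6 h: 14 of the 30 samples of the series. These were 3 Control, 4 FoxK1 KD, 4 FoxK2 KD and 3 DKD samples (labelled Double FoxK1/2 KD). All 14 were serum-starved overnight and then given insulin (100 nM), so that starvation and insulin were common to every group. Messenger RNA was sequenced in each sample, and the contrast was computed for the 11368 genes that passed edgeR's filter on low counts. A value of 0 means that the fold effects of the knockdowns multiply (their log2 effects add), a negative value that the DKD level lies below the level so expected, and a positive value that it lies above.

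FoxK1 and FoxK2 are closely related members of the Forkhead family of transcription factors. They bind the forkhead DNA motif, recruit the Sin3 corepressor complex and are known to repress genes of autophagy and atrophy, some of which FoxO factors activate. Because both proteins recognise similar sequences, the loss of one may in principle be covered by the other, and the 4-group design lets the effect of one knockdown be measured with and without the other factor. The contrast is the difference between the FoxK1 effect in the FoxK2 KD background (DKD minus FoxK2 KD) and in the Control background (FoxK1 KD minus Control), 2 comparisons that share no sample.

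Libraries held 2345903 to 4455447 counts. The 4 FoxK1 KD libraries were the shallowest group (2345903 to 2673390), against 3140647 to 3879649 in Control, 3195833 to 4440948 in FoxK2 KD and 2606258 to 4455447 in DKD cells. The labels do not say whether the replicates were separate cultures, so the p-values measure the spread between these samples, which may be technical. Of 12 hepatocyte markers, Hnf4a, Apob, Krt8 and Krt18 were clearly expressed, Alb was low (5.06 to 19.7 CPM, counts scaled to library sizes adjusted by the TMM method), and Apoa1 and Asgr1 had medians below 1 CPM. All 8 stellate or fibroblast markers and all 7 endothelial markers had medians below 1 CPM. The biliary markers Krt19, Sox9 and Spp1 were expressed, and the summed level of the 6 cholangiocyte markers was 2059 to 2589 CPM in Control, 2064 to 2312 in FoxK1 KD, 2323 to 2827 in FoxK2 KD and 2066 to 2720.3 CPM in DKD cells. Most of that sum was Spp1 and Krt19. Krt7 was at 11 to 32.3 CPM, Cftr was low at 1.26 to 4.42 CPM, and Epcam had no counts in any of the 14 samples. Of 9 macrophage and leukocyte markers, 5 had medians below 1 CPM, Adgre1, Clec4f and Cd3e had no counts in any of the 14 samples, and the summed level was 101 to 135 CPM in Control, 93.7 to 112 in FoxK1 KD, 112 to 140.5 in FoxK2 KD and 98.6 to 123 CPM in DKD cells, most of it Cd14. In bulk samples, fewer cells of a type and less RNA per cell cannot be told apart.

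The depletion of each target was checked first. Foxk1 (chromosome 5, 142401497 to 142462011, GRCm38) stood at 52.2, 57.8 and 49.0 CPM in Control cells and at 30.7, 28.0, 29.6 and 35.3 CPM in FoxK1 KD cells. In FoxK2 KD cells it stood at 52.5, 50.3, 48.8 and 58.0 CPM, and in DKD cells at 30.5, 31.3 and 40.9 CPM. The samples given the FoxK1 knockdown thus lay below all those that were not, without overlap. Foxk1 fell by 0.78 (SE 0.14, edgeR adjusted p = 0.000987) on the log2 scale in FoxK1 KD against Control cells. In DKD against FoxK2 KD cells, the difference was -0.60 (SE 0.14) with an adjusted p of 0.0725 over all genes. As a share of the Control mean, Foxk1 was at 58.2% in FoxK1 KD and at 64.6% in DKD cells, and the non-additivity of Foxk1 itself was 0.18 (95% interval -0.22 to 0.58).

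Foxk2 (chromosome 11, 121259990 to 121309896) stood at 157, 163 and 168 CPM in Control, and at 149.6, 148, 123 and 135 CPM in FoxK1 KD cells. It stood at 63.5, 68.5, 68.9 and 62.0 CPM in FoxK2 KD and at 59.0, 66.2 and 67.6 CPM in DKD cells, all below the 7 samples without FoxK2 knockdown. The fall was 1.31 (SE 0.09, adjusted p = 7.82e-12) in the Control background and 1.12 (SE 0.10, adjusted p = 3.28e-09) in the FoxK1 KD background, with a non-additivity of 0.19 (95% interval -0.08 to 0.47). In every knockdown group a large share of the targeted transcript was still present, so the contrast measures partial depletion of both transcripts, not their absence. Proteins were not measured in these files, while the paper checked the knockdowns by western blot.

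**Figure D1:**
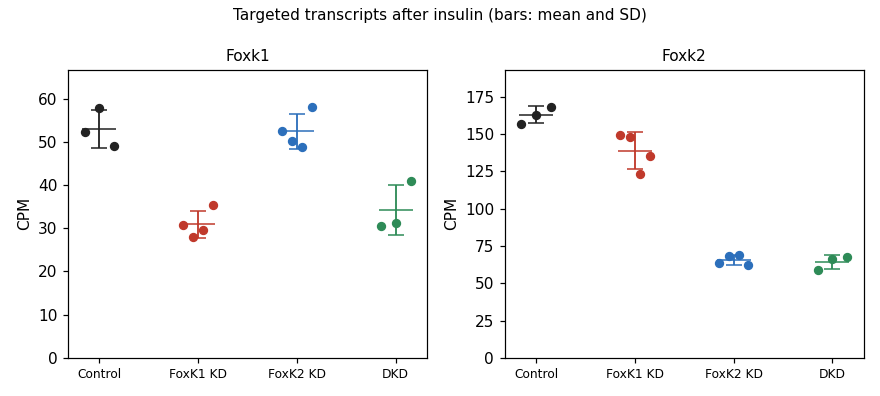
CPM of Foxk1 and Foxk2 in each of the 14 insulin-stimulated samples (points), with group mean and SD (bars). Foxk1 is at 28.0 to 40.9 CPM in the 7 samples with FoxK1 knockdown and at 48.8 to 58.0 CPM in the others; Foxk2 is at 59.0 to 68.9 CPM in the 7 samples with FoxK2 knockdown and at 123 to 168 CPM in the others.

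No gene passed the test for non-additivity after insulin. With edgeR's quasi-likelihood test, 0 of 11368 genes (0%) had an adjusted p below 0.05, and the smallest adjusted p was 0.405. DESeq2 and limma-voom also called 0 genes, with smallest adjusted p-values of 0.148 and 0.512. The values nearest the threshold with 0 genes called were 0.0566 with the offset for GC content and length, where 715 genes had an unadjusted p below 0.05, and 0.0899 without Control replicate 1. With a filter of at least 1 count in any sample, 13 genes were called, for which the adjusted p with the filter used here was 0.874 to 1. At an unadjusted p below 0.05, 575 genes were found by edgeR where 568.4 are expected if no gene departs from additivity, 481 by DESeq2 and 589 by limma-voom. The looser threshold of the study (adjusted p below 0.25 with a fold above 1.5) also gave 0 genes.

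How large a departure the data would have resolved depended on the expression level. The median SE of the contrast was 0.203 on the log2 scale, and 81.3% of the genes had a 95% interval that lay within a 2-fold change in either direction. Within a 1.5-fold change lay the intervals of 51.8% of the genes. Among the 3228 genes with a mean log2-CPM of 6 to 8 these shares were 99.6% and 88.6%, while among the 958 genes under 2 they were 1.46% and 0%. For well-expressed genes a departure of 2-fold was therefore outside the interval in nearly all cases, and for weakly expressed genes it was not detectable at this depth. These intervals are not adjusted for the number of genes.

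The FoxK1 effect was then set side by side in the 2 backgrounds. In the Control background FoxK1 knockdown changed 408 genes (3.59%), 212 higher and 196 lower; in the FoxK2 KD background it changed 15 genes (0.132%), 11 higher and 4 lower. The FoxK2 effect went the other way in number: 3 genes (0.0264%) in the Control and 40 genes (0.352%), 22 higher and 18 lower, in the FoxK1 KD background. The groups behind these counts differ in depth, and the test of the difference for each gene is the contrast above, which called 0. With an offset for the GC content and length of the genes, 626 genes were called in place of 408, 240 higher and 386 lower. Leaving out Control replicate 1, FoxK1 KD replicate 2 or FoxK1 KD replicate 4 gave 231, 266 and 228 genes, and leaving out any of the 7 samples of the second comparison gave 2 to 7 genes in place of 15, with DKD replicate 1 the lowest. When all 14 libraries were thinned to the depth of the shallowest, the counts were 360 and 4.

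Of the 408 genes, 373 (91.4%) had the same sign in the FoxK2 KD background, in samples that did not choose them. Their median signed effect was 0.50 on the log2 scale in the Control background, which chose them, and 0.18 in the FoxK2 KD background. Selection raises the first of these values, so a list chosen outside the insulin samples was used as well. It held the 920 genes (8.09%) called for FoxK1 knockdown against Control in the 16 basal samples. This list too was chosen by the effect in the Control background, which favours genes with a larger FoxK1 effect there. No list was chosen by the FoxK1 effect in the FoxK2 KD background at basal. Over all genes, that basal effect had a Spearman rho of -0.22 with GC content, and the FoxK1 effect in the Control background after insulin one of 0.16. The part of GC content in the list was not tested. Signed by their basal direction, the 920 genes had a median effect of 0.17 in the Control background after insulin, with 751 (81.6%) in the basal direction. In the FoxK2 KD background it was 0.09, with 674 (73.3%). Their median non-additivity, signed in the same way, was -0.08. The median of 0.001 over all genes tested is unsigned, so it is not a like reference. With the list chosen without Control basal replicate 1, which moved its size by over 1.5 times, it held 408 genes, and the medians were 0.28, 0.15 and -0.14.

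The mean signed level of the 920 genes, relative to the mean of Control cells, gave a value per sample. Control cells were at -0.042, 0.023 and 0.019, and FoxK2 KD cells at 0.038, 0.018, -0.060 and 0.016, so these groups overlapped. FoxK1 KD cells were at 0.225, 0.168, 0.227 and 0.199, and DKD cells at 0.082, 0.126 and 0.131. The 3 DKD samples lay above all Control and FoxK2 KD samples and below all FoxK1 KD samples, and the contrast of the 4 means was -0.095. In a principal component analysis of the 14 samples, the first component (17.5% of the variance) showed the same order: -20.8 to -5.5 in Control, -10.8 to -6.2 in FoxK2 KD, -4.0 to 3.3 in DKD and 15.1 to 17.2 in FoxK1 KD cells. The FoxK1 KD libraries were also the shallowest, and DKD cells retained slightly more Foxk1 on average. The part of either in this order was not tested. The 920 genes were chosen by the basal effect in the Control background, which favours lower values in DKD than in FoxK1 KD cells. These values are descriptions, and over all 11368 genes the FoxK1 effects in the 2 backgrounds had a Pearson r of 0.27 and a Spearman rho of 0.33 across genes, which are not independent replicates.

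**Figure D2:**
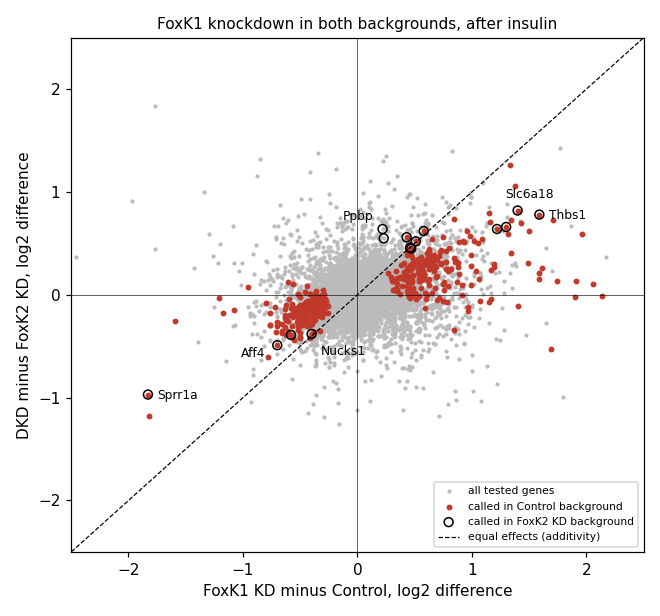
Each point is a gene: the log2 difference FoxK1 KD minus Control (horizontal) against DKD minus FoxK2 KD (vertical), which share no sample; the dashed line marks equal effects. The 408 genes called in the Control background (red) lie mostly in the quadrants of equal sign and nearer the horizontal axis than the dashed line, in part because they were chosen on the horizontal value; the 15 circled genes were called in the FoxK2 KD background, and 1 gene lies beyond 2.5 and is not drawn.

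The 15 genes called in the FoxK2 KD background were named because the FoxK1 effect could be seen there with FoxK2 already depleted. All 15 had the same sign in the Control background, where 13 were also called (Ppbp and Dtna were not). The estimated FoxK1 effect in FoxK2 KD cells was close to that in Control cells for some of them, numerically smaller for others, and numerically larger for Ppbp, Dtna and Bcas3. Examples with estimates near 0 are given first. None of the 15 passed the test of the difference.

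Deptor encodes an inhibitory partner of mTOR, the kinase on which FoxK regulation by insulin depends. It stood at 34.3, 42.4 and 35.8 CPM in Control, 50.2, 53.8, 60.5 and 48.3 CPM in FoxK1 KD, 60, 60.5, 42.2 and 47.9 CPM in FoxK2 KD, and 72.2, 73.5 and 80.9 CPM in DKD cells. Every DKD sample lay above every single knockdown sample, and FoxK1 KD cells lay above Control cells without overlap. Deptor rose by 0.51 (SE 0.12, adjusted p = 0.00934) with FoxK1 knockdown in the Control background and by 0.52 (SE 0.10, adjusted p = 0.0187) in the FoxK2 KD background. FoxK2 knockdown gave 0.50 (adjusted p = 0.088) and 0.51 (adjusted p = 0.014) in the Control and FoxK1 KD backgrounds. The DKD mean was 101% of the level expected from the single knockdowns, with a non-additivity of 0.01 (95% interval -0.31 to 0.33).

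Ctsf, which encodes the lysosomal protease cathepsin F, had the same shape. Control cells were at 39.8, 42.7 and 40.2 CPM and DKD cells at 73.4, 72.0 and 84.9 CPM. Between them lay FoxK1 KD cells at 60.6, 50.8, 56.3 and 57.5 CPM and FoxK2 KD cells at 57.5, 56.1, 48.8 and 61.1 CPM, with no sample of either overlapping Control or DKD cells. FoxK1 knockdown raised it by 0.46 in either background (adjusted p = 0.00583 and 0.0174), and the non-additivity was 0.00 (95% interval -0.34 to 0.34). For both genes, the call for FoxK1 knockdown in FoxK2 KD cells was lost in part of the alternatives, with adjusted p-values up to 0.357 for Deptor and 0.25 for Ctsf.

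Inpp5k and Nucks1 followed FoxK1 knockdown alone. Inpp5k, a phosphatase of inositol lipids known to restrain insulin signalling, stood at 53.0, 60.4 and 60 CPM in Control and 58.0, 55.0, 58.9 and 55.8 CPM in FoxK2 KD cells. It stood at 79.8, 83.2, 78.7 and 77.6 CPM in FoxK1 KD and 73.7, 82.8 and 78.0 CPM in DKD cells, so that the samples with FoxK1 knockdown lay above all others. It rose by 0.47 (SE 0.10, adjusted p = 0.00307) and 0.45 (SE 0.09, adjusted p = 0.0202) in the Control and FoxK2 KD backgrounds, with a non-additivity of -0.02 (95% interval -0.28 to 0.25). Its second call held in 7 of the 14 fits that left out 1 sample. Nucks1, a chromatin-associated protein of DNA repair, fell by 0.40 (adjusted p = 0.00375) and 0.38 (adjusted p = 0.0482), with a non-additivity of 0.02 (95% interval -0.22 to 0.26); its second call was lost on leaving out any 1 of the 14 samples. Fbxo32, the ubiquitin ligase atrogin-1 and a classical FoxO target of muscle atrophy, rose by 0.58 (adjusted p = 0.005) and 0.62 (adjusted p = 0.00845), and its non-additivity was 0.04 (95% interval -0.30 to 0.38).

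Thbs1, Slc6a18, Sept4 and Sprr1a had smaller FoxK1 effects in FoxK2 KD cells. Thbs1 encodes thrombospondin 1, a secreted matrix protein. It stood at 24.0, 18.6 and 22 CPM in Control, 66.1, 51.9, 69.9 and 73.1 CPM in FoxK1 KD, 20.3, 21.5, 22.8 and 25.8 CPM in FoxK2 KD, and 41.5, 37.5 and 36.3 CPM in DKD cells. DKD cells lay between the other groups, without overlap with either. The rise with FoxK1 knockdown was 1.59 (SE 0.14, adjusted p = 1.72e-09) in the Control and 0.78 (SE 0.13, adjusted p = 0.00601) in the FoxK2 KD background, and the DKD mean was 56.2% of the level expected from the single knockdowns. The non-additivity of -0.81 (95% interval -1.21 to -0.42) had an unadjusted p of 0.00017 and an adjusted p of 0.405.

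Slc6a18, a transporter of neutral amino acids, stood at 12.4, 14.2 and 14.1 CPM in Control, 34.4, 35.8, 41.1 and 32.3 CPM in FoxK1 KD, 15.4, 18.2, 19.4 and 15.4 CPM in FoxK2 KD, and 29.8, 27.9 and 32.3 CPM in DKD cells. Its rise was 1.40 (SE 0.14, adjusted p = 5.74e-08) and 0.82 (SE 0.13, adjusted p = 0.00231) in the 2 backgrounds, and the second call held on leaving out any of the 14 samples. The non-additivity was -0.58 (95% interval -0.98 to -0.18, adjusted p = 0.874). Sept4, a septin of the cytoskeleton, rose by 1.22 and 0.64 (adjusted p = 5.04e-08 and 0.00791), with a non-additivity of -0.58 (95% interval -0.92 to -0.24, adjusted p = 0.702). Sprr1a, a component of the cornified envelope, fell by 1.83 and 0.97 (adjusted p = 1.21e-07 and 0.0187), with a non-additivity of 0.86 (95% interval 0.28 to 1.44, adjusted p = 0.874). Its second call held in 8 of the 14 fits that left out 1 sample. Its level was low, at 5.20 to 7.35 CPM in the 7 samples with FoxK1 knockdown.

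Among the 6 other genes, Aff4, a scaffold of the transcription elongation machinery, fell by 0.70 and 0.49 (adjusted p = 3.84e-07 and 0.00231), with a non-additivity of 0.21 (95% interval -0.02 to 0.43). Tgoln1, a trans-Golgi membrane protein, fell by 0.58 and 0.39 (adjusted p = 2.25e-05 and 0.0394), with a non-additivity of 0.19 (95% interval -0.04 to 0.43); its second call held in 4 of the 14 fits that left out 1 sample. Bcas3 rose by 0.43 and 0.56 (adjusted p = 0.034 and 0.0174), with a non-additivity of 0.12 (95% interval -0.21 to 0.45). Its second call held in 9 of those 14 fits. Serpina1a, an alpha-1-antitrypsin gene that belongs to a family of near-identical copies and is therefore uncertain in its counts, rose by 1.30 and 0.66 (adjusted p = 7.58e-06 and 0.0492), with a non-additivity of -0.64 (95% interval -1.11 to -0.18); its second call was also lost on leaving out any sample. Ppbp, a platelet chemokine gene, had 0.22 in the Control background (adjusted p = 0.366) and rose by 0.64 in the FoxK2 KD background (adjusted p = 0.0161), and its non-additivity was 0.42 (95% interval 0.06 to 0.77). Dtna, dystrobrevin alpha, had 0.23 (adjusted p = 0.409) and rose by 0.55 (adjusted p = 0.0434), with a non-additivity of 0.33 (95% interval -0.04 to 0.70); this call held in 2 of those 14 fits.

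**Figure D3:**
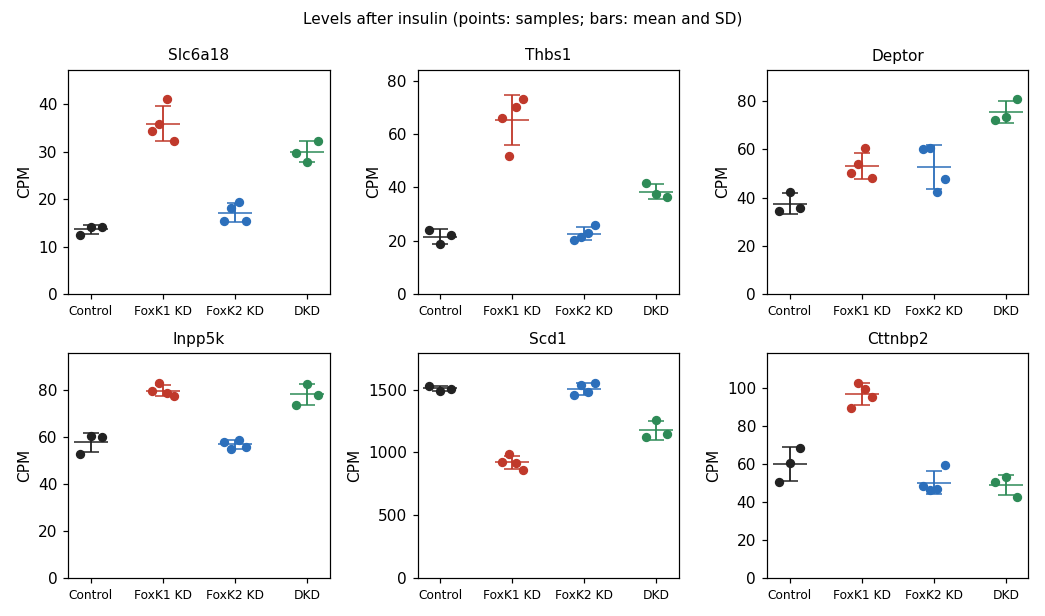
CPM of 6 genes in each of the 14 insulin-stimulated samples (points), with group mean and SD (bars). The mean of Deptor steps up with each knockdown, with overlap between Control and FoxK2 KD samples, and Inpp5k follows FoxK1 knockdown alone. The DKD samples of Slc6a18, Thbs1 and Scd1 lie on the Control side of most FoxK1 KD samples. Those of Cttnbp2 overlap Control and FoxK2 KD samples.

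The genes with the smallest adjusted p for FoxK1 knockdown in the Control background were named next. That choice raises the size of their effects in the Control background, which enter the non-additivity with a minus sign. Scd1, the stearoyl-CoA desaturase that makes monounsaturated fatty acids, stood at 1531, 1491 and 1505 CPM in Control, 926, 986, 915 and 859.6 CPM in FoxK1 KD, 1456, 1540.2, 1482 and 1555 CPM in FoxK2 KD, and 1122, 1258 and 1144 CPM in DKD cells. The 4 FoxK1 KD samples were the lowest and the 3 DKD samples lay between them and the others. The fall was 0.71 (SE 0.08, adjusted p = 6.19e-07) in the Control background, the difference was -0.36 (SE 0.08, adjusted p = 0.0763) in the FoxK2 KD background, and the non-additivity was 0.35 (95% interval 0.11 to 0.59, adjusted p = 0.874).

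Of the other genes among the 8 highest and 8 lowest in that comparison, Vcam1, an adhesion molecule induced by inflammatory signals, fell by 0.63 (adjusted p = 1.74e-05) with -0.31 (adjusted p = 0.247) in the FoxK2 KD background. Lbp, the lipopolysaccharide-binding protein of the acute-phase response, rose by 0.66 (adjusted p = 4.39e-06) with 0.33 (adjusted p = 0.131). Akap12, a scaffold for protein kinase A, rose by 0.69 (adjusted p = 6.25e-07) with 0.27 (adjusted p = 0.318). Atp1b1, the beta subunit of the sodium pump, rose by 1.19 (adjusted p = 4.39e-06) with 0.30 (adjusted p = 0.837). Ccdc9b (0.99 and 0.39), Adgrg1 (0.77 and 0.25), Ero1l (-0.52 and -0.34) and B4galt1 (-0.70 and -0.26) were called in the Control and not in the FoxK2 KD background, and their non-additivity did not pass the test (adjusted p 0.639 to 0.994). Outside that set, Csf1r, the receptor of a macrophage growth factor and a member of the leukocyte marker list, rose by 1.71 (adjusted p = 0.000165) in the Control background. The difference was 0.73 (adjusted p = 0.612) in the FoxK2 KD background. The mean level of Csf1r was low, at 2.7 CPM in Control, 9.09 in FoxK1 KD, 5.6 in DKD and 3.21 CPM in FoxK2 KD cells. The marker list did not move together. Cd14 was at 112 CPM in Control and 90 CPM in FoxK1 KD cells, Cd68 at 1.6 and 1.43, and Ptprc at 1.18 and 1.23 CPM. Adgre1, Clec4f and Cd3e had no counts.

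FoxK2 knockdown in the Control background changed Foxk2, Lamb3 and Pdcd4. Pdcd4, an inhibitor of translation that is degraded downstream of mTOR and S6 kinase, stood at 125, 96.7 and 107 CPM in Control, 176, 175, 179 and 167 CPM in FoxK1 KD, 153, 173, 143 and 151 CPM in FoxK2 KD, and 184, 178 and 182 CPM in DKD cells. All samples with any knockdown lay above all Control samples. It rose by 0.67 (adjusted p = 1.74e-05) with FoxK1 and by 0.50 (adjusted p = 0.0242) with FoxK2 knockdown, and the DKD mean was 73.6% of the level expected from both, with a non-additivity of -0.44 (95% interval -0.70 to -0.18, adjusted p = 0.732). Lamb3, a laminin chain of epithelial basement membranes, fell by 0.45 (adjusted p = 0.0268) with FoxK2 knockdown and had a non-additivity of 0.22 (95% interval -0.03 to 0.47). Leaving out Control replicate 2 or 3, or FoxK2 KD replicate 1, 2 or 4, gave 1 gene in place of 3, and leaving out Control replicate 1 or FoxK2 KD replicate 3 gave 5 and 7.

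In the FoxK1 KD background, FoxK2 knockdown changed the 40 genes, and the 4 highest and 4 lowest by adjusted p were named. Tnfrsf9, a receptor of the TNF family, rose by 0.71 (adjusted p = 0.00759), B4galt1, a Golgi galactosyltransferase, by 0.62 (adjusted p = 0.00759), Dtx4, a regulator of Notch, by 0.47 (adjusted p = 0.00759) and Tlr2, a receptor for bacterial lipopeptides, by 0.83 (adjusted p = 0.00759). Foxk2, Cttnbp2, Thbs1 and Akap12 fell, by 1.12, 1.0, 0.76 and 0.44. This comparison shares the FoxK1 KD samples with that of FoxK1 KD against Control, so opposite signs in the 2 follow in part from the shared samples and are not given as a result. Leaving out FoxK1 KD replicate 1 or 2 or DKD replicate 1, 2 or 3 gave 24, 20, 19, 14 and 19 genes in place of 40.

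The genes with the smallest p for non-additivity are given as a ranking, since none passed the adjusted threshold. Up to 6 in each direction were taken among protein-coding genes with a mean log2-CPM of at least 3. Cttnbp2, a cortactin-binding protein, had the smallest p: 50.6, 60.7 and 68.5 CPM in Control, 89.4, 103, 99.9 and 95.4 CPM in FoxK1 KD, 48.3, 46.2, 47.0 and 59.5 CPM in FoxK2 KD, and 50.7, 53.0 and 42.9 CPM in DKD cells. Only the FoxK1 KD samples lay apart. The non-additivity was -0.74 (95% interval -1.07 to -0.41, unadjusted p = 5.5e-05, adjusted p = 0.405), and over all alternatives the adjusted p ranged from 0.0504 to 0.89. Lrp11, a member of the LDL receptor-related family, was at 41.1, 47.1 and 44.0 CPM in Control, 27.0, 29.5, 30.1 and 32.7 CPM in FoxK1 KD, 39.7, 43.5, 41.3 and 42.2 CPM in FoxK2 KD, and 47.3, 44.9 and 42.7 CPM in DKD cells, again with the FoxK1 KD samples alone apart. Its non-additivity was 0.67 (95% interval 0.35 to 0.99, unadjusted p = 0.00014, adjusted p = 0.405).

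The other ranked genes with negative estimates were Atp1b1 (-0.90), Thbs1 (-0.81), Lrtm2 (-0.91), Tlr1 (-1.13) and Akap12 (-0.42), with adjusted p-values from 0.405 to 0.639. Those with positive estimates were Vsig1 (1.18), Crtc3 (0.57), Ttll7 (0.53) and Mgat4b (0.38), with adjusted p-values from 0.504 to 0.853. Crtc3 is a coactivator of CREB, and Tlr1 pairs with Tlr2. Tlr1 was at 5.8 to 7.55 CPM in Control, 11.9 to 16.3 CPM in FoxK1 KD, 7.5 to 9.4 CPM in FoxK2 KD and 6.97 to 7.32 CPM in DKD cells. Vsig1 and Tlr1, with the largest estimates of the ranking, had low levels, with a mean log2-CPM of 3.43 and 3.2. The SE of their estimates was 0.3 and 0.28.

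**Figure D4:**
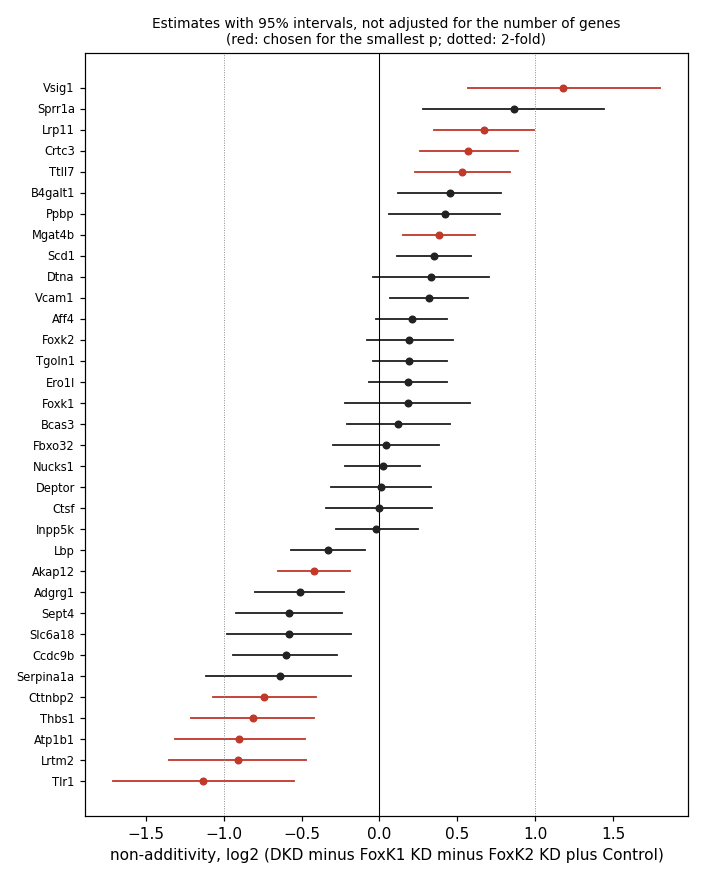
Non-additivity (log2) with its 95% interval for Foxk1, Foxk2, the 15 genes called for FoxK1 knockdown in FoxK2 KD cells, the genes most changed by FoxK1 knockdown in Control cells and the genes with the smallest p (red); dotted lines mark 2-fold. Ctsf, Deptor, Inpp5k and Nucks1 lie near 0, and no gene passes the adjusted threshold.

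Gene lists of pathways were described by their counts and medians, to be read against the 3.59% of all genes called for FoxK1 knockdown in the Control and the 0.132% called in the FoxK2 KD background. At the second share, 0 calls in a list of this size is what the background gives. Cholesterol synthesis and LDL uptake had 27 tested members, of which 8 fell and 0 rose with FoxK1 knockdown in the Control background, and 0 were called in the FoxK2 KD background. The medians were -0.23 and -0.10, and the median non-additivity was 0.15, beside 0.00 over all genes for each. Hsd17b7, an enzyme of the pathway, fell by 0.41 with -0.29 in the FoxK2 KD background, and Lss, the cyclase that forms lanosterol, by 0.34 with -0.16. Of 25 genes of fatty acid synthesis and desaturation, 5 fell (Scd1, Acsl3, Elovl6, Elovl5 and Scd2) and Dgat1 rose, with medians of -0.11 and -0.06 and a median non-additivity of 0.08. Of 27 genes of glycolysis and glucose uptake, 7 fell and 0 rose in the Control background and 0 were called in the other, with medians of -0.20 and -0.09 and a median non-additivity of 0.11. Hk2 (hexokinase) fell by 0.50 with -0.41, Pfkp by 0.55 with -0.44, Ldha by 0.52 with -0.16 and Pdk1 by 0.47 with -0.24.

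Of 32 mitosis genes, Mad2l1, Kif2c, Nek2, Anln and Bub1 fell, and of 31 DNA replication genes Mcm2, Mcm3 and Mcm5, subunits of the replicative helicase, fell, against 3.59% of all genes called in that comparison. Each of these calls was in the Control background. The medians of the mitosis list were -0.25 and -0.20 in the 2 backgrounds, with a median non-additivity of 0.04, and those of the replication list -0.24 and -0.17, with 0.05. Among 29 ATF4 and amino acid genes, 4 fell (Slc7a5, Slc7a11, Psat1 and Asns), with medians of -0.20 and -0.13. Among 16 G1 cyclins and CDK inhibitors, Ccnd1, Ccnd2 and Cdkn1a rose by 0.29, 0.39 and 0.39, with 0.17, 0.16 and 0.09 in the FoxK2 KD background. None of these were called there.

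Of 28 genes from the insulin receptor to mTOR, Deptor and Igf1r rose with FoxK1 knockdown in the Control background (0.51 and 0.54), and Deptor alone was called in the FoxK2 KD background. Igf1r, the receptor of IGF-1, fell with FoxK2 knockdown in the FoxK1 KD background, and its non-additivity was -0.25. The 20 genes of FoxO factors and FoxO-type fasting genes held 0 calls in any of the 4 knockdown comparisons, with a median non-additivity of 0.02 and 0 members at an unadjusted p below 0.05. Of 38 autophagy and lysosome genes, Atg7, an enzyme of autophagosome formation, rose in the Control background, a share no higher than the 3.59% of all genes, and 0 were called in the other 3 comparisons, with medians of 0.11 and 0.06 and a median non-additivity of 0.03. Among 21 FoxK factors and corepressor partners, Foxk1 and Sin3a, the scaffold of the corepressor complex, fell in the Control background; Sin3a fell by 0.39 with -0.08 in the FoxK2 KD background. In the 27 lists together, 0 members were called non-additive. List medians ran from -0.18 (11 mitochondrial genome transcripts, with members from -0.41 to 1.41) to 0.15 (cholesterol, with members from -0.13 to 0.6). Members of a list share regulation and are not replicates, and no test of a list was made.

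A forkhead core, spelled TGTTTAC or GTAAACA on the transcribed strand, was searched in the 250 bases before the start of each gene that had an entry in the RefSeq promoter table (GRCm38.p6). It was found in 241 of 8740 tested genes (2.76%), in 12 of 293 genes called for FoxK1 knockdown in the Control background (4.1%), and in 0 of the 9 of the 15 genes that had an entry. Of the 12, 8 fell and 4 rose. Il33, which had the smallest adjusted p of the 12, and the metabolic genes Slc7a11 and Elovl6 are shown, with the core in capitals, so that the letters can be read beside the FoxK1 effects in both backgrounds. They were chosen after their values were seen.
Il33, chr19:29924863-29925112, plus strand: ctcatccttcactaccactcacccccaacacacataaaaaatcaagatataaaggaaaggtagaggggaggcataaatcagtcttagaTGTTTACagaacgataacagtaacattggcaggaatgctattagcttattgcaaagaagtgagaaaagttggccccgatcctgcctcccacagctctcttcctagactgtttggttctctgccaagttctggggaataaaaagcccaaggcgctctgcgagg
Slc7a11, chr3:50443614-50443863, minus strand: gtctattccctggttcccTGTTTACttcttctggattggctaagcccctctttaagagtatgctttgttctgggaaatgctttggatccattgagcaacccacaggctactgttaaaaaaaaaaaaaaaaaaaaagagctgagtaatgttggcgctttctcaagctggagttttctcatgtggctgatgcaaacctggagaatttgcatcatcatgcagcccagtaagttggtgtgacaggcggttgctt
Elovl6, chr3:129532136-129532385, plus strand: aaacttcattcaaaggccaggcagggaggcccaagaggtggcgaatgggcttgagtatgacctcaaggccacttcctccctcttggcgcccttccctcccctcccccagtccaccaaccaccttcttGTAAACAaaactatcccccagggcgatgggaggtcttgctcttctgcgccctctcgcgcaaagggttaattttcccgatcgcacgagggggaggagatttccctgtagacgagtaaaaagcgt

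Il33, a cytokine of the IL-1 family, fell by 0.59 (SE 0.11, adjusted p = 0.00142) in the Control background with -0.20 (SE 0.11, adjusted p = 0.884) in the FoxK2 KD background, and its non-additivity was 0.39 (SE 0.16). Slc7a11, the cystine transporter, fell by 0.70 (SE 0.16, adjusted p = 0.0102) with -0.30 (SE 0.16, adjusted p = 0.884), and its non-additivity was 0.41 (SE 0.23). Elovl6, the elongase of long-chain fatty acids, fell by 0.38 (SE 0.10, adjusted p = 0.02) with -0.18 (SE 0.10, adjusted p = 0.884), and its non-additivity was 0.20 (SE 0.14). A match is a description of letters and not of binding, and the absence of a match says only that these letters are not in this window.

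The same contrast in the 16 basal samples (mock-treated, labelled 0 min, 4 per group) was compared with that after insulin. At basal, 1405 genes (12.4%) were called non-additive, 773 higher and 632 lower, and with the offset for GC content and length 289 were called. The targets themselves had a basal non-additivity of 0.55 for Foxk1 (95% interval 0.21 to 0.89, edgeR adjusted p = 0.031) and 0.34 for Foxk2 (0.08 to 0.6, adjusted p = 0.0731). After insulin these values were 0.18 and 0.19. The part of unequal depletion in the basal count was not tested. Leaving out Control basal replicate 1, FoxK1 KD basal replicate 2, FoxK2 KD basal replicate 1 or DKD basal replicate 1 gave 898, 707, 777 and 779 genes. Across genes, which are not independent replicates, GC content had a Spearman rho of 0.57 with the basal contrast and of -0.13 with that after insulin. Between the lowest and the highest decile of GC content, with medians of 39.5% and 59.3%, the median basal contrast went from -0.31 to 0.39, and that after insulin from 0.03 to -0.06. The median SE was similar, at 0.182 at basal and 0.203 after insulin.

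**Figure D5:**
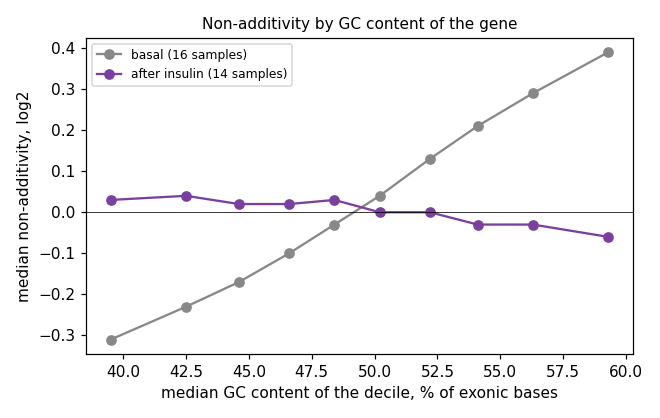
Median non-additivity (log2) in deciles of the GC content of the tested genes, at basal (grey) and after insulin (purple). The basal medians go from -0.31 to 0.39 across the deciles and those after insulin from 0.03 to -0.06.

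The difference between insulin and basal was tested directly, and 33 genes (0.29%) passed, 18 higher and 15 lower after insulin. With the offset for GC content and length the count was 9, of which 7 were among the 33. It was 3 on leaving out FoxK1 KD insulin replicate 2, FoxK2 KD insulin replicate 3, DKD insulin replicate 2 or DKD basal replicate 3, and 158 on leaving out Control basal replicate 4. It moved by over 1.5 times on leaving out any sample other than Control basal replicate 2, FoxK1 KD basal replicates 1 and 3, FoxK2 KD basal replicate 3, Control insulin replicate 1, FoxK2 KD insulin replicates 2 and 4, and DKD insulin replicate 1. Among the genes named, the basal value was the one far from 0. Kdm6a, a histone H3 demethylase, had a contrast of -1.09 at basal and 0.04 after insulin, a difference of 1.14 (adjusted p = 0.00818). After insulin it stood at 95.5, 99.6 and 94.0 CPM in Control, 96.6, 102, 94.7 and 104 CPM in FoxK2 KD, 88.7, 103, 110.5 and 90.6 CPM in FoxK1 KD and 100, 110.3 and 103 CPM in DKD cells. The groups overlapped, apart from DKD and Control cells.

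Kcnj16, a potassium channel subunit, went from -0.87 to 0.03 (adjusted p = 0.0214) and Snap29, a SNARE protein of autophagosome fusion, from -0.67 to 0.20 (adjusted p = 0.0329). In the other direction, Trp53, the tumour suppressor p53, went from 0.70 to -0.34 (adjusted p = 0.00818), Lypla2, a depalmitoylating thioesterase, from 0.81 to -0.36 (adjusted p = 0.0329) and Kctd10, an adaptor of ubiquitin ligases, from 0.72 to -0.36 (adjusted p = 0.0329). With the offset, Lypla2 and Kctd10 no longer passed (adjusted p = 0.327 and 0.143). In the 14 fits that left out 1 insulin sample, Kdm6a and Trp53 passed in all 14. Kcnj16 passed in 11 of them, Snap29 in 9, Lypla2 in 8 and Kctd10 in 7. These fits left out no basal sample. None of the 6 passed the test for non-additivity after insulin (adjusted p 0.924 to 1). The unadjusted 95% intervals after insulin lay below 0 for Trp53 (-0.61 to -0.07), Lypla2 (-0.72 to -0.01) and Kctd10 (-0.68 to -0.03). Those of Kdm6a, Kcnj16 and Snap29 included 0.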

How the data were processed

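Poly(A) RNA of AML12 cells was sequenced in 30 samples, of which the 14 insulin samples carry the contrast. The authors deposited raw read counts per gene for each sample, made per the labels with CASAVA 1.8, STAR 2.4.2a and featureCounts on GRCm38.p4. The files held 49089 gene identifiers, of which 48435 were matched to GENCODE M21, and groups were taken from the labels. No 2 samples of a group were alike within counting noise: over 18 pairs, chi-square divided by its degrees of freedom was at least 1.71.

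From the counts, 1 model with 8 groups (knockdown by insulin) was fitted over all 30 samples with edgeR 4.0.16 in R 4.3.3 (filterByExpr, TMM normalisation, quasi-likelihood F-test). Adjusted p-values are Benjamini-Hochberg values over 11368 genes, and a gene was called at an adjusted p below 0.05 with no fold minimum. SE is the log2 value divided by the square root of F. CPM used TMM-adjusted library sizes. The script was tested on simulated data. DESeq2 1.42.0, limma 3.58.1 (voom), other filters, size factors, a GC content and length offset (loess span 0.4), thinning to 2345903 counts, a replicate block and leaving out each sample were alternatives.

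Named genes were the targets, the genes called for FoxK1 knockdown in FoxK2 KD cells, the 8 highest and 8 lowest by adjusted p for FoxK1 knockdown in Control cells, the 3 called for FoxK2 knockdown in Control cells, the 4 in each direction for FoxK2 knockdown in FoxK1 KD cells, the 6 in each direction with the smallest p for non-additivity and the 3 in each direction for insulin minus basal (protein coding, mean log2-CPM of at least 3), with up to 4 called members of each list. All of these but the targets and the insulin minus basal genes were added after values were seen. The ranked and the list genes had been planned only among genes called non-additive after insulin, of which there were 0. The members and lists were chosen with earlier results of these data known. siRNA sequences were not used here. The basal samples are labelled 0 min, while the protocol gives a mock treatment. Some genes that these rules name are not reported here.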

Additional observations from a re-analysis of the deposited data

Results flagged for a closer look

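In groups of 4 samples, 1 sample stood far from the other 3 (Dixon's test at the 95% level) in 6 of 92 gene and group pairs of the named genes, and chance gives such a gap in about 1 in 20. Fbxo32 was at 28.3 CPM in FoxK2 KD replicate 4, against 23.4 to 23.7 in the others, and Cttnbp2 at 59.5 CPM in the same sample, against 46.2 to 48.3. Atp1b1 was at 22.1 CPM in FoxK2 KD replicate 3, against 25.6 to 26.1. Tlr2 was at 21.4 CPM in FoxK2 KD replicate 1, against 26.1 to 26.8. Adgrg1 was at 55 CPM in FoxK1 KD replicate 3, against 70.5 to 73.2, and Tlr1 at 16.3 CPM in FoxK1 KD replicate 1, with the others at 11.9.

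The non-additivity differed between insulin and basal samples by the test of the difference itself (edgeR) in 6 named genes. The difference, insulin minus basal, was 1.14 for Kdm6a, 0.90 for Kcnj16 and 0.87 for Snap29, and -1.04 for Trp53, -1.18 for Lypla2 and -1.07 for Kctd10. With the GC content and length offset together with the replicate block, Kcnj16 had 0.73 (adjusted p = 0.0546) and Snap29 0.75 (adjusted p = 0.0829).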

How the results depend on the processing

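The count of non-additive genes after insulin was 0 under every alternative but 1, leaving out each of the 14 samples included. With a filter of at least 1 count in any sample it was 13, 7 higher and 6 lower. All 13 also passed the main filter, where their adjusted p was 0.874 to 1 and their SE 0.2 to 0.9, against 0.14 to 0.35 under the looser filter, where the prior degrees of freedom were infinite in place of 13.1. That filter gave 14 genes for FoxK2 knockdown in Control cells, 110 for FoxK2 knockdown in FoxK1 KD cells and 303 for insulin minus basal. DESeq2 gave 23 genes for FoxK1 knockdown in FoxK2 KD cells and 184 for insulin minus basal. The fit of only the 14 insulin samples gave 8 genes for FoxK2 knockdown in Control cells, and 13 (7 higher, 6 lower) for FoxK1 knockdown in FoxK2 KD cells. The GC content and length offset gave 626, 8 and 9 genes for FoxK1 and FoxK2 knockdown in Control cells and insulin minus basal. Thinning gave 4 for FoxK1 knockdown in FoxK2 KD cells, and Bcas3 and Deptor had a non-additivity of 0.29 and -0.17. The cause of these shifts was not tested. Leaving out 1 sample gave 228 to 295 and 2 to 7 genes for FoxK1 knockdown in Control and FoxK2 KD cells, 1 to 7 and 14 to 35 for FoxK2 knockdown in Control and FoxK1 KD cells, and 3 to 158 for insulin minus basal. Replicate numbers did not pair the samples: 19 same-numbered pairs had a mean correlation of deviations of -0.056 (-0.20 to 0.06). With the replicate block, 0 genes were non-additive after insulin, and the counts were 331, 10, 2 and 34 for the 4 knockdown comparisons in the order above and 34 for insulin minus basal. With the offset and the block together they were 521, 19, 3, 52 and 7. The SE of the contrast was larger at lower expression, with a median of 0.61 under a mean log2-CPM of 2 and of 0.131 over 8.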
